A study of Mus musculus with 6 samples.

Results

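Actin filaments and the proteins that bind, slide or crosslink them were followed in mouse adipose-derived stem cells (ADSC), stromal cells grown from fat. The set held 32 named genes of the 56748 in the deposited table: 6 actins, 3 myosin heavy chains, 2 myosin light chains and their kinase, 4 tropomyosins, 3 calponins, 2 transgelins, caldesmon, other contractile or filament-bound proteins, 2 transcription factors and 2 genes of vessel wall cells. They were chosen by gene name, and each name had 1 protein-coding row. Contraction in smooth muscle begins when myosin light chain kinase phosphorylates the light chains of myosin, which then pulls on actin filaments lined with tropomyosin, calponin and caldesmon. Stromal cells that build up the same proteins are known as myofibroblasts, and in culture they carry bundles of them called stress fibres. Many of these genes are switched on by serum response factor (SRF) bound to a DNA element called the CArG box. Cofactors of SRF are myocardin and the myocardin-related factors, and the latter leave free actin monomers when filaments grow.

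RNA was sequenced from 3 libraries labelled mock and 3 labelled overexpressing, the latter from cells transduced together with Vla4 and Lfa1, which are leukocyte integrins. Both groups were grown in the same serum-containing medium. The word mock is not used evenly in the labels, which speak of an empty vector in one place and of wild type or unmodified cells in others. The vector, its promoter, the strain and age of the mice, and whether replicate libraries were separate cultures go unstated in the labels, so the p-values rest on a spread between libraries that may be technical. The subunits of these integrins were not higher in the libraries labelled overexpressing: Itga4 had 335 counts over the mock libraries and 133 over the overexpressing ones, Itgb1 143294 and 118688, Itgb2 38 and 15, and Itgal 7 and 7. The labels are thus not borne out by these genes, but whether reads of the constructs would be counted in these mouse genes was not tested. Every direction here is between libraries as labelled.

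Library totals ran from 15723888 to 18381083 counts. Levels of a gene are given as CPM, its count as a rate per M counts of the library (M, 10 to the power of 6) after a TMM factor for composition, in mock replicates 1, 2 and 3 and then in overexpressing replicates 1, 2 and 3. Comparisons between different genes use the authors' FPKM, which divide by gene length, and that length covers all exons of a gene, so genes with many alternative exons are set low. The stromal identity of the cells was checked with 14 mesenchymal markers, of which the collagens Col1a1, Col1a2 and Col3a1 were the most abundant (13011 ± 627, 6365 ± 230 and 2658 ± 141 CPM in mock, SD, n = 3), while Nt5e (CD73) and Lum (lumican) had no more than 28 counts in either group. These are bulk samples, in which fewer cells of a type and less RNA per cell cannot be told apart.

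The contractile genes were lower in the libraries labelled overexpressing. Of the 32 genes, 31 passed the filter on low counts, and none of these had fewer than 15 counts in any library. By edgeR's quasi-likelihood test (adjusted p under 0.05 over all 14502 tested genes) 25 of the 31 fell and 0 rose. Of all tested genes 45.8% were called, 23.2% as lower and 22.6% as higher. At an unadjusted p under 0.05 the edgeR count that rose was also 0, as were the adjusted counts by DESeq2 and limma-voom. The median log2 fold change over the 31 was -0.57, beside 0.01 over all tested genes. A decrease of at least 0.5 on the log2 scale was reached by 16 of them (11.3% of all tested genes), and a 2-fold decrease by 3, namely Des, Actg2 and Cnn1 (4.85% of all tested genes). All 3 overexpressing libraries lay below all 3 mock libraries for 25 genes (26.5% of all tested genes), and above them for Tpm3 alone (26.9%). Together the 32 genes took 2.82% to 2.96% of all counts of mock and 2.30% to 2.40% of overexpressing libraries.

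**Figure D1:**
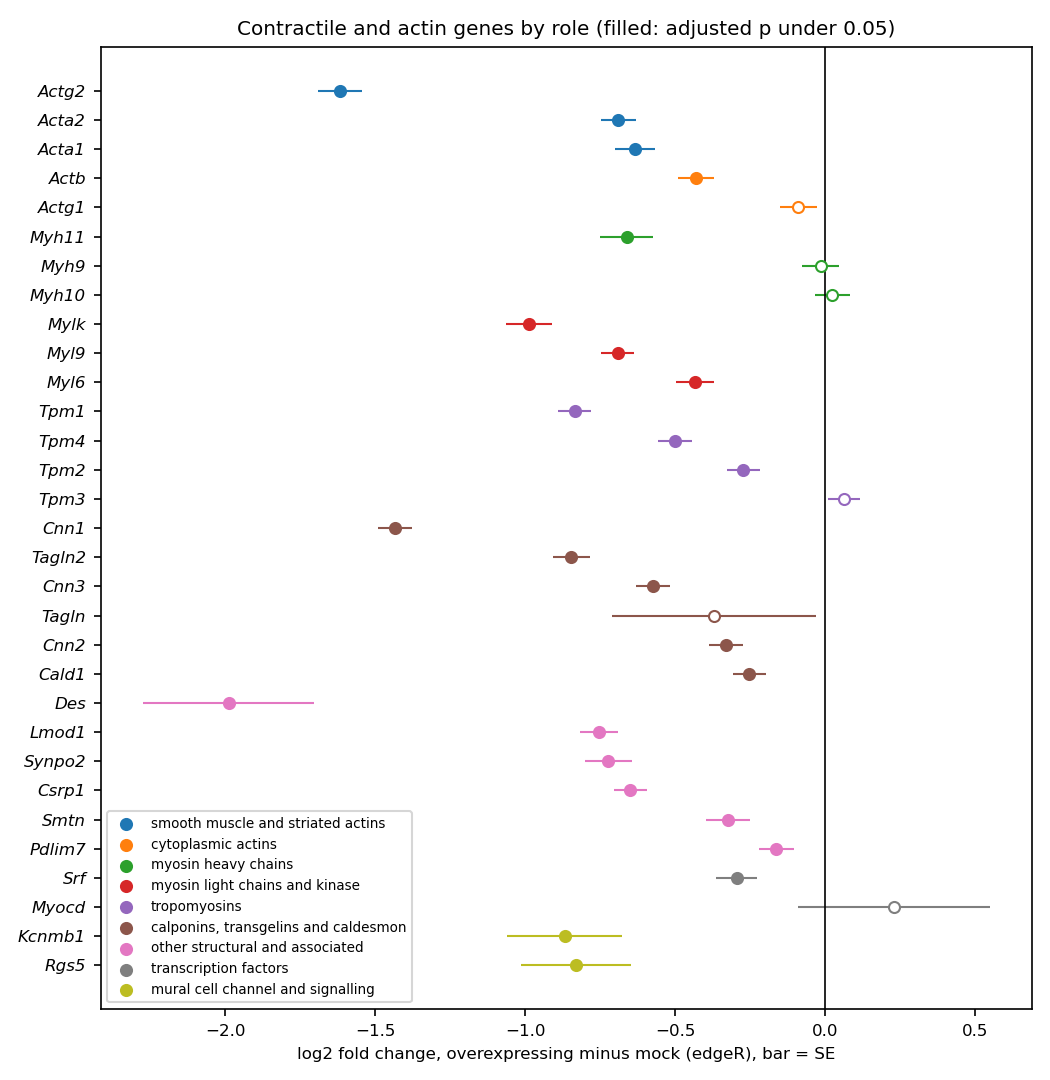
Log2 fold change of the 31 tested genes between the libraries labelled overexpressing and mock, with the standard error of the edgeR fit, grouped by role. Filled points have an adjusted p under 0.05, and all 25 of them lie to the left of 0.

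**Figure D2:**
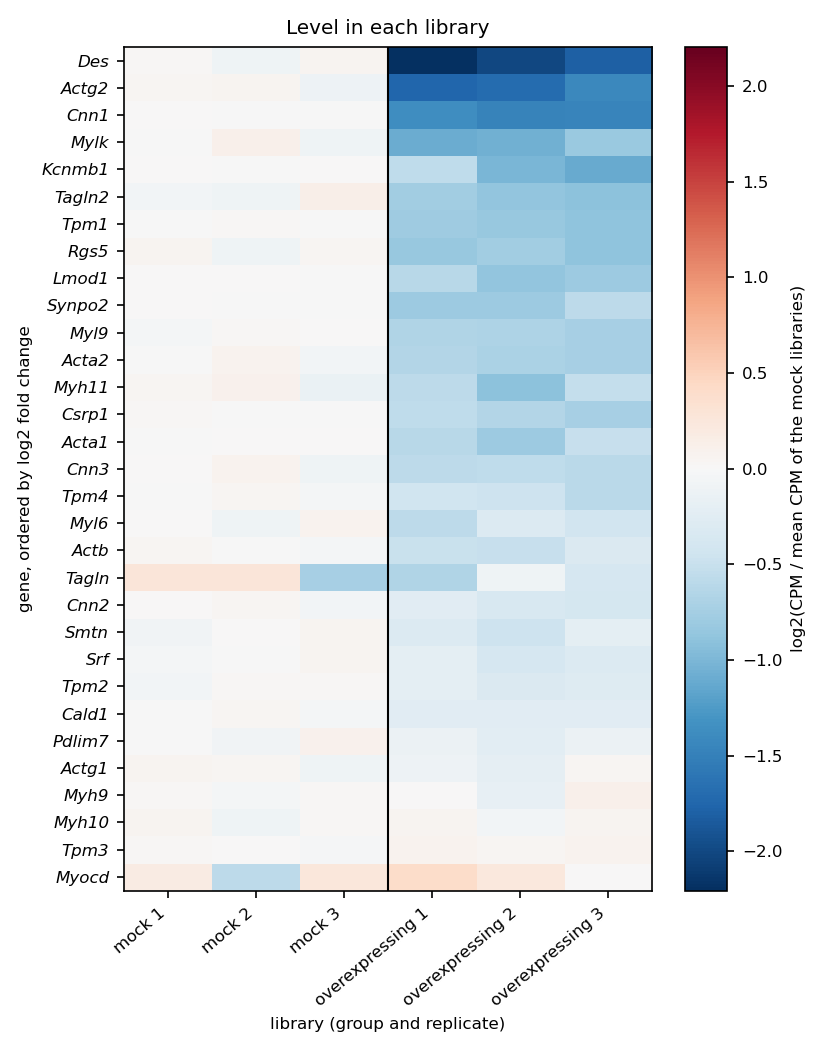
Level of each tested gene in each of the 6 libraries, as log2 of its CPM over the mean CPM of the mock libraries, ordered by fold change. The mock columns are near 0 except for Tagln and Myocd, and the overexpressing columns are blue for most genes, with Des, Actg2 and Cnn1 deepest.

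Among the actins, the smooth muscle forms fell most and cytoplasmic gamma-actin did not pass the test. Acta2 (ENSMUSG00000035783, chromosome 19, 34218490 to 34232990, mm39), the alpha-actin that defines myofibroblasts, had 6807, 7232 and 6575 CPM in mock and 4416, 4239 and 4121 CPM in overexpressing libraries. It was the 8th most abundant gene of the table by CPM, and its groups were far apart: the log2 change was -0.69 ± 0.058 (SE, edgeR adjusted p = 2.78e-12), 1.61-fold lower. Actg2 (ENSMUSG00000059430, chromosome 6, 83489887 to 83513247), the gamma-actin of visceral smooth muscle, had 255, 258 and 228 CPM in mock and 73.3, 76.3 and 91.9 CPM in overexpressing libraries. Every overexpressing library was thus under the lowest mock library, and the log2 change was -1.62 ± 0.073 (SE, adjusted p = 3.40e-16), 3.07-fold lower. Acta1 (chromosome 8, 124618508 to 124621490), the alpha-actin of skeletal muscle, had 121, 123 and 123 CPM in mock and 79.7, 70.5 and 86.5 CPM in overexpressing libraries, a log2 change of -0.63 ± 0.066 (SE, adjusted p = 5.97e-10). The level of Acta1 stood beside almost no other striated muscle RNA: of 29 skeletal and cardiac markers, 22 were under 1 CPM in every library, 7 had no count at all (Myog, Myf5, Myf6, Myh7, Myl1, Actn2 and Tnnc2), and the whole list summed to 20.7 to 25.4 CPM in mock and 22.2 to 26.2 CPM in overexpressing libraries. In that list Neb, Actn3 and Tnnc1 had the most RNA, and 2 of 8 tested genes rose (Tnnc1 and Myh2) and 1 fell (Tnnt2). These calls were fragile: that of Tnnt2 was lost in 10 of 15 other settings, and that of Tnnc1 by DESeq2 (adjusted p = 0.0576) and, in edgeR, when mock replicate 1 or 2 or overexpressing replicate 2 was left out (adjusted p = 0.062, 0.0951 and 0.0592). Myh2 was under the filter when a mean of 1 CPM was required. Actc1, the cardiac alpha-actin, had 3 counts over the mock and 6 over the overexpressing libraries. It was not tested, and the 95% counting interval of its ratio, 1.93, ran from 0.413 to 11.9.

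The cytoplasmic actins, which every cell uses, split. Actb (beta-actin, chromosome 5, 142888870 to 142892509) fell from 4170 ± 118 to 3095 ± 225 CPM (SD, n = 3), which is -0.43 ± 0.059 on the log2 scale (fold change ± SE, edgeR adjusted p = 1.87e-07). Actg1 (gamma-actin, chromosome 11, 120236516 to 120239368) had 3193, 3139 and 2859 CPM in mock and 2833, 2659 and 3153 CPM in overexpressing libraries. Its groups overlapped, since overexpressing replicate 3 lay above 2 of the mock libraries, and its log2 fold change was -0.09 (SE 0.062, adjusted p = 0.255). Without that library it was -0.16 (adjusted p = 0.0315), and the sign turned to 0.02 when libraries were scaled by size alone. Of the 100-base windows in the transcripts of Actg1, 29.9% occur also in transcripts of other genes, mostly pseudogenes such as Gm12715 (1766 and 1987 counts over mock and overexpressing libraries), so how its reads were shared out is uncertain. None of the 100-base windows of Acta2, Actg2, Acta1 or Actc1 occur in another gene.

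Summed over the 6 genes, actin RNA was 6048 ± 264 FPKM in mock and 4238 ± 167 FPKM in overexpressing libraries (SD, n = 3), with no overlap. Its makeup differed as well. Acta2 made up 50.4%, 52.5% and 51.5% of actin FPKM in mock and 46.9%, 46.8% and 42.4% in overexpressing libraries, so it was the leading actin in all 6 with a share lower by 6.15 percentage points. The share of Actg1 was 19.6%, 18.8% and 18.5% in mock and 24.8%, 24.2% and 26.8% in overexpressing libraries, higher by 6.33 points. Actg2 held 2.61% ± 0.074 of the sum in mock and 1.21% ± 0.12 in overexpressing libraries, a difference of -1.40 points, or -0.93 with raw counts in place of FPKM. The share of Actb was 25.6% ± 0.72 and 27.0% ± 1.18, with overlapping groups. Each share that does not overlap has an exact two-sided permutation p = 0.1, the smallest that 3 libraries against 3 allow, and 0.164 after Benjamini-Hochberg adjustment over the 18 shares computed in 5 families, so no share could pass the 0.05 threshold.

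**Figure D3:**
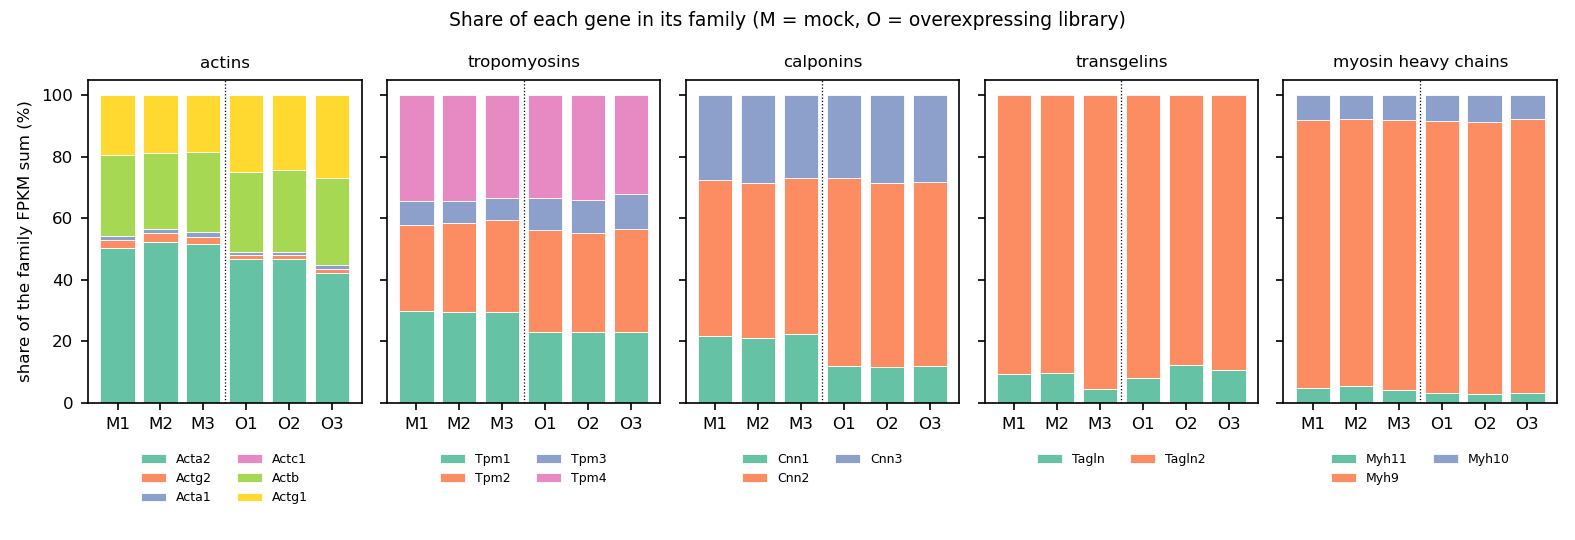
Share of each gene in the FPKM sum of its family, in percent, for the 3 mock libraries (M1 to M3) and the 3 overexpressing libraries (O1 to O3). The bars for Acta2, Tpm1, Cnn1 and Myh11 are shorter in O1 to O3, and those for Actg1, Tpm2, Tpm3, Cnn2 and Myh9 are longer.

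Of the myosin heavy chains, which form the motor, the smooth muscle chain fell and the nonmuscle chains did not pass the test. Myh11 (ENSMUSG00000018830, chromosome 16, 14012399 to 14109236), a marker of mature smooth muscle, had 111, 115 and 97.3 CPM in mock and 72.5, 57.3 and 74.5 CPM in overexpressing libraries. These groups did not overlap, and the log2 change was -0.66 ± 0.087 (SE, edgeR adjusted p = 4.81e-06). Myh9, the nonmuscle myosin IIA chain of most cells in culture, had 3333, 3174 and 3359 CPM in mock and 3319, 2916 and 3537 CPM in overexpressing libraries. It was as high in one group as in the other within their spread, with a log2 change of -0.01 ± 0.062 (SE, adjusted p = 0.875). Myh10, the nonmuscle IIB chain, had 239 ± 13.1 and 243 ± 11.3 CPM (log2 fold change 0.02, SE 0.058, adjusted p = 0.763). Scaled by library size alone, Myh9 was at 0.10 and Myh10 at 0.14, and the latter then passed (adjusted p = 0.0472). Per length, Myh9 was the bulk of heavy chain RNA in both groups (87.3% ± 0.45 and 88.7% ± 0.33 of the FPKM sum), and Myh11 went from 4.88% ± 0.52 to 3.15% ± 0.17. With raw counts in place of FPKM the differences were 0.81 points for Myh9 in place of 1.37, and -1.07 for Myh11 in place of -1.73. The sum of the 3 chains was 290.0 ± 6.91 FPKM in mock and 281 ± 27.5 FPKM in overexpressing libraries, which overlapped (exact permutation p = 0.8).

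The light chains and the kinase that acts on them all fell. Myl9 (ENSMUSG00000067818, chromosome 2, 156617340 to 156623578), the regulatory light chain of smooth muscle and stress fibres, had 668, 701 and 686 CPM in mock and 432, 427 and 414 CPM in overexpressing libraries. Both groups were tight, and the log2 change was -0.69 ± 0.055 (SE, edgeR adjusted p = 4.63e-13). Mylk, the kinase, had 81.2, 88.0 and 76.4 CPM in mock and 38.3, 39.2 and 46.4 CPM in overexpressing libraries, a log2 change of -0.99 ± 0.077 (SE, adjusted p = 5.08e-13), 1.98-fold lower. The gene spans chromosome 16 from 34565580 to 34822790, and 2.66% of its 100-base windows lie antisense to other transcripts. Myl6, the essential light chain used by muscle and nonmuscle myosin alike, fell from 474 ± 28.2 to 351 ± 33.4 CPM, which is -0.43 ± 0.063 on the log2 scale (fold change ± SE, adjusted p = 1.03e-06). Kinase and regulatory light chain were thus lower in the same libraries in which the level of the main heavy chain, Myh9, did not pass the test.

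Tropomyosins are coiled rods that lie along actin filaments and set which myosins and other proteins bind them. Tpm1 (ENSMUSG00000032366, chromosome 9, 66929872 to 66956688) had 1842, 1896 and 1837 CPM in mock and 1078, 1041 and 1005 CPM in overexpressing libraries. The lowest mock library was well above the highest overexpressing one, and the log2 change was -0.84 ± 0.056 (SE, edgeR adjusted p = 4.29e-15), 1.78-fold lower. Tpm4 fell from 1402 ± 44.9 to 992 ± 56.7 CPM (log2 fold change -0.50, SE 0.057), and Tpm2 from 811 ± 29.6 to 672 ± 20.9 CPM (log2 fold change -0.27, SE 0.055). Tpm3 had 446, 443 and 431 CPM in mock and 462, 455 and 462 CPM in overexpressing libraries. All of its overexpressing values were above the mock ones by a margin too small to pass, with a log2 change of 0.06 ± 0.054 (SE, adjusted p = 0.345), and scaled by library size alone it rose (0.18, adjusted p = 0.00616). A portion of 15.8% of the 100-base windows of Tpm3 also occurs in Tpm3-rs7, which had 2029 and 2118 counts over the mock and overexpressing libraries.

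The tropomyosin sum went from 962 ± 24.3 to 692 ± 23.5 FPKM, without overlap. Of that sum Tpm1 held 29.8%, 29.5% and 29.6% in mock and 23.0%, 23.0% and 22.9% in overexpressing libraries, a difference of -6.70 points against an SD of 0.16 and 0.057 within the groups. Tpm3 held 7.48% ± 0.19 in mock and 10.8% ± 0.36 in overexpressing libraries. The share of Tpm2 was higher by 4.15 points although its level fell, and the shares of Tpm4 overlapped (34.0% ± 0.62 and 33.2% ± 1.03). Each of these genes makes several proteins from alternative exons, which gene counts do not separate.

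Calponin 1 had the smallest p of the whole set. Cnn1 (ENSMUSG00000001349, chromosome 9, 22010512 to 22020926), a filament-binding protein of differentiated smooth muscle, had 353, 348.7 and 349.7 CPM in mock and 136, 126 and 127 CPM in overexpressing libraries. Its mock libraries were almost level (SD 2.53 CPM), and the log2 change was -1.43 ± 0.057 (SE, edgeR adjusted p = 1.29e-21), 2.70-fold lower. Cnn3, the acidic calponin, had 497, 524 and 466 CPM in mock and 333, 338 and 328 CPM in overexpressing libraries, a log2 change of -0.57 ± 0.056 (SE, adjusted p = 1.26e-10). Cnn2, the calponin of nonmuscle cells, fell from 736 ± 26.3 to 585 ± 26.8 CPM, which is -0.33 ± 0.056 on the log2 scale (fold change ± SE, adjusted p = 7.82e-06). Per length, Cnn1 held 21.8%, 20.9% and 22.5% of calponin FPKM in mock and 12.1%, 11.8% and 12.1% in overexpressing libraries. Its share was lower by 9.73 points and that of Cnn2 higher by 9.57 points (50.6% ± 0.086 and 60.2% ± 0.76), while the shares of Cnn3 overlapped.

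Transgelins and caldesmon also bind along actin. Tagln2, the transgelin of nonmuscle cells, had 294, 289 and 338 CPM in mock and 180.1, 169 and 164 CPM in overexpressing libraries. The groups were apart, with a log2 change of -0.85 ± 0.062 (SE, edgeR adjusted p = 8.92e-14). Tagln (SM22 alpha, chromosome 9, 45840917 to 45847356), a classical early marker of smooth muscle, had 29.2, 29.2 and 14.8 CPM in mock and 15.3, 22.8 and 18.8 CPM in overexpressing libraries. Mock replicate 3 lay below all the others, the groups overlapped and the log2 change was -0.37 ± 0.34 (SE, adjusted p = 0.447). Without mock replicate 3 it was -0.63 (SE 0.12, adjusted p = 0.000191). Tagln was also low beside its partners, at 14.6, 14.7 and 7.36 FPKM in mock where Acta2 was at 3082, 3293 and 2968 FPKM. An antisense RNA, Gm48529, covers 56.3% of the span of Tagln in the deposited coordinates. In the GENCODE M21 transcripts 48.3% of the 100-base windows of Tagln lie antisense to Gm48529 or Pcsk7. No label states the strand setting of the counting, and whether reads of Tagln were left out as ambiguous was not tested. Cald1, caldesmon, fell from 3158 ± 88.6 to 2651 ± 5.97 CPM, the smallest called decrease among these 6 genes (log2 fold change -0.25, SE 0.055, adjusted p = 0.000272).

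All 6 of the other structural genes fell. Des, the intermediate filament protein desmin, had 3.75, 3.46 and 3.83 CPM in mock and 0.798, 0.911 and 1.06 CPM in overexpressing libraries. Its decrease was the deepest of the set but rests on 189 counts over the mock and 49 over the overexpressing libraries: the log2 change was -1.99 ± 0.29 (SE, edgeR adjusted p = 3.96e-07), and the 95% counting interval of the count ratio, 0.25, ran from 0.179 to 0.344. Lmod1 (leiomodin, chromosome 1, 135252545 to 135295803), which seeds actin filaments in smooth muscle, had 142, 142 and 141 CPM in mock and 92.7, 77.3 and 81.4 CPM in overexpressing libraries. The mock libraries were nearly equal, and the log2 change was -0.75 ± 0.065 (SE, adjusted p = 4.04e-12). Csrp1, a LIM protein of smooth muscle, had 688, 665 and 665 CPM in mock and 454, 429 and 404 CPM in overexpressing libraries (log2 fold change -0.65, SE 0.057, adjusted p = 5.86e-12). Synpo2, an actin-binding protein of muscle Z-discs and stress fibres, had 57.7, 57.2 and 57.4 CPM in mock and 33.0, 33.0 and 38.3 CPM in overexpressing libraries (log2 fold change -0.72, SE 0.078, adjusted p = 1.09e-09). For neither gene did the groups overlap. Smtn (smoothelin) and Pdlim7, a PDZ and LIM protein bound to tropomyosin and actinin filaments, also fell (-0.32 and -0.16 on the log2 scale, SE 0.074 and 0.059). The call of Pdlim7 (adjusted p = 0.0231) ended when mock replicate 1 or 3 or overexpressing replicate 2 was left out (adjusted p = 0.0503, 0.131 and 0.0974), with upper quartile factors (0.0507) and with library size only (0.493).

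Both genes of mural cells, the muscle and pericyte layer around vessels, fell from low levels. Kcnmb1, the beta subunit of the calcium-activated potassium channel of smooth muscle, had 6.13, 6.07 and 6.18 CPM in mock and 4.15, 3.04 and 2.83 CPM in overexpressing libraries. No overexpressing library reached the mock level, and the log2 change was -0.87 ± 0.19 (SE, edgeR adjusted p = 0.000317). Its span lies within Kcnip1 on the other strand, which had 2 counts in all. Rgs5, a regulator of G protein signalling in pericytes, had 6.41, 5.79 and 6.36 CPM in mock and 3.46, 3.64 and 3.34 CPM in overexpressing libraries (log2 fold change -0.83, SE 0.18, adjusted p = 0.000317). Other pericyte markers did not share 1 direction. Of 9 in the list 5 were tested, of which 2 fell and 3 rose. Pdgfrb, a growth factor receptor, fell by 0.57 on the log2 scale, while Cspg4 (NG2) rose by 1.16 and Notch3 by 0.25. The remaining tested genes, Ndufa4l2 and Anpep, had log2 fold changes of -3.40 and 1.13. The groups of Notch3 overlapped. Its call was lost without mock replicate 1 or 3 or overexpressing replicate 1 or 3 (edgeR adjusted p = 0.0522, 0.054, 0.0504 and 0.0962). The list summed to 770.4 to 828 CPM in mock and 563 to 636 CPM in overexpressing libraries, and Kcnj8 and Vtn had no counts.

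Of the 2 transcription factors, Srf was lower and Myocd did not pass the test. Srf (ENSMUSG00000015605, chromosome 17, 46859255 to 46867101) fell from 73.3 ± 2.5 to 59.7 ± 3.05 CPM (SD, n = 3), which is -0.29 ± 0.068 on the log2 scale (fold change ± SE, edgeR adjusted p = 0.000498). Myocd, myocardin, the muscle-restricted cofactor of SRF, had 1.82, 1.08 and 1.91 CPM in mock and 2.13, 1.88 and 1.61 CPM in overexpressing libraries. These ranges overlapped (log2 fold change 0.23, SE 0.32, adjusted p = 0.586), and its 82 and 100 counts over the groups gave 1.18 as their ratio, the 95% counting interval running from 0.871 to 1.60.

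The region before the start site was searched for the CArG box, in its full form with A or T throughout the core between CC and GG, since SRF binds it and is itself in the set. RefSeq promoter windows (GRCm38.p6, 250 bases before to 50 after the start) matched 27 of the 32 genes, and Actb, Actg2, Tagln, Myh11 and Myocd had none. The pattern reads the same on both strands. A full CArG box was present in 7 of the 27 genes (25.9%), namely Acta1, Actc1, Actg1, Cnn2, Myl6, Myl9 and Srf, and in 1.81% of the 27025 genes of the table. The form with 1 G or C in the core was in 5 of the 27 (18.5%, Acta1, Acta2, Actc1, Myl9 and Tpm3) and in 9.69% of all genes. A match describes letters and not binding. The set was chosen by name and holds known targets of SRF, so its share of matches says nothing about these libraries. The 200 bases before the start are shown for 7 genes, with both forms in capitals where they lie wholly within these bases. The genes were chosen to set 3 actins, a myosin light chain, 2 calponins and Srf side by side. For Acta1 a further site with 1 G or C in the core, CCATATACGG at -205 from the start, begins before the bases shown.
Acta2 (chr19:34255374-34255573, minus strand): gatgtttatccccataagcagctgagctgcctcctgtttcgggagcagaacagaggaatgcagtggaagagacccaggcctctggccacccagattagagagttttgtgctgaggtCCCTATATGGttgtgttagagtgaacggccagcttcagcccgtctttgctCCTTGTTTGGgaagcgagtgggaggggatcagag
Acta1 (chr8:123894776-123894975, minus strand): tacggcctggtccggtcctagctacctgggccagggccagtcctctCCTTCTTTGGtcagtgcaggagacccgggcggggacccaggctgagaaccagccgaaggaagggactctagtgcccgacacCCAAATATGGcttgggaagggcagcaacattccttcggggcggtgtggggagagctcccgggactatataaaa
Actg1 (chr11:120348496-120348695, minus strand): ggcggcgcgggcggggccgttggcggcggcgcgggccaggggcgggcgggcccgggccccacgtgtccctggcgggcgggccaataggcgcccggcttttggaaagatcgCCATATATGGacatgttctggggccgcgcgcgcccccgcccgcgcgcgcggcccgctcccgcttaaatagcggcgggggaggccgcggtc
Myl9 (chr2:156775264-156775463, plus strand): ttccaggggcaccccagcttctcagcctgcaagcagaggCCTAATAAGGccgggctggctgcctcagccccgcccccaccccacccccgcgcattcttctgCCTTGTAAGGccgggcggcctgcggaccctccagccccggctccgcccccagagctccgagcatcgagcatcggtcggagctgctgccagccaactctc
Cnn1 (chr9:22099053-22099252, plus strand): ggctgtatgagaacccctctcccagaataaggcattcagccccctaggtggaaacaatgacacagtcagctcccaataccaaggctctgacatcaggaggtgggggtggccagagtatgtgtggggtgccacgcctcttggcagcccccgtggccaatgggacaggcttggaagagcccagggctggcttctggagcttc
Cnn2 (chr10:79988400-79988599, plus strand): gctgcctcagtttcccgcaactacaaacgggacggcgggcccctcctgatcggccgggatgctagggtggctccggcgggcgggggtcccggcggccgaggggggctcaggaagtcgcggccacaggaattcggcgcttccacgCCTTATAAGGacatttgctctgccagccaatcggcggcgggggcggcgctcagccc
Srf (chr17:46556163-46556362, minus strand): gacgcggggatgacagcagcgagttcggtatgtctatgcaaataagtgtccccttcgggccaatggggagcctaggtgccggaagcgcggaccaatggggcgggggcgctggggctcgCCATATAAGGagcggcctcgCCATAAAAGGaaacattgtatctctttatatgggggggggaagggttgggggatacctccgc

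Genes with a full box went from nearly level to clearly lower. Among the 6 tested genes with a full box, Actg1, with CCATATATGG at -90 from the start, had a log2 fold change of -0.09, and Myl9, with CCTAATAAGG at -161, had -0.69. Srf, whose own promoter holds CCATATAAGG at -82 and CCATAAAAGG at -62, had -0.29, Cnn2 -0.33, Myl6 -0.43 and Acta1 -0.63. Acta2 held only the form with 1 G or C in the core, CCCTATATGG at -84 and CCTTGTTTGG at -34, and Cnn1, the calponin that fell most, held neither form in its window.

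Other genes of the pathway moved in both directions. In a list of 20 SRF cofactors and further smooth muscle genes, all tested, 14 fell and 2 rose, with a median log2 fold change of -0.51. Over all tested genes 23.2% fell and 22.6% rose. By p the leading decreases were those of Mcam, an adhesion molecule of vessel wall cells, from 108 ± 8.96 to 30.4 ± 2.64 CPM, and of Filip1l, Aoc3 (an amine oxidase of smooth muscle and fat) and Itga8 (an integrin subunit of smooth muscle), with log2 fold changes of -1.36, -1.47 and -0.90. The genes that rose were the myocardin-related cofactors themselves, Mrtfa by 0.61 (SE 0.065) and Mrtfb by 0.21 (SE 0.071), and they were singled out after their values were seen. The call of Mrtfb was lost without mock replicate 2 or overexpressing replicate 1 (edgeR adjusted p = 0.0714 and 0.0567). A list of 25 genes covered RhoA, its kinase ROCK and myosin phosphatase, which set the phosphorylation of the light chain. In it 14 rose and 4 fell, with a median of 0.18, beside 22.6% higher and 23.2% lower of all tested genes. Leaving out 1 library at a time gave 12 to 15 higher and 3 to 5 lower genes in this list. Rhob, a small GTPase, rose from 370.2 ± 13.3 to 612 ± 14.0 CPM, Limk1, the kinase that switches off cofilin, from 54.2 ± 5.02 to 99.2 ± 3.19 CPM, and Arhgef12, an activator of RhoA, from 158 ± 5.86 to 234 ± 7.37 CPM. Ppp1r14a (CPI-17), the smooth muscle inhibitor of myosin phosphatase, went the other way, from 10.6 ± 0.58 to 1.89 ± 0.40 CPM, which is -2.48 ± 0.19 on the log2 scale (fold change ± SE, edgeR adjusted p = 1.99e-13).

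Among 35 genes of actin assembly and crosslinking, 34 were tested, 20 fell and 4 rose, with a median log2 fold change of -0.20. Of all tested genes, 23.2% were called as lower and 22.6% as higher. Scaled by library size alone, 10 fell and 6 rose, beside 2385 lower and 4636 higher among all 14502 tested genes. Tmsb4x (thymosin beta 4), which holds actin monomers, fell from 1647 ± 75.9 to 1017 ± 135 CPM, and the crosslinkers Pls3 and Palld had decreases of -0.49 and -0.48 on the log2 scale. Flnc, the filamin of muscle, rose from 621 ± 38.8 to 1033 ± 71.5 CPM, which is 0.73 ± 0.060 on the log2 scale (fold change ± SE, edgeR adjusted p = 1.54e-12). In all 3 pathway lists together, genes were called in both directions, whereas the contractile set had decreases only, except with library size only, where Tpm3 and Myh10 rose.

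Most tested markers of Schwann and mesenchymal cells fell, beside 23.2% of all tested genes. The macrophage, endothelial and mesothelial lists had at most 5 tested genes each. Of 10 Schwann cell markers 8 were tested and 6 fell, the list summing to 32.5 to 38.9 CPM in mock and 7.65 to 8.12 CPM in overexpressing libraries. Ngfr fell, from 16.6 CPM in mock to 0.144 CPM in overexpressing libraries, while S100b, at 3.74 and 3.81 CPM, was not called. Leaving out 1 library at a time gave 4 to 6 lower Schwann cell genes. Of 14 mesenchymal markers 13 were tested and 10 fell, the list summing to 24332 to 26226 CPM in mock and 10316 to 12264 CPM in overexpressing libraries. The macrophage list of 10 (led by Csf1r, Lyz2 and Cd68) summed to 21.7 to 25.3 and 17.0 to 20.8 CPM, with 1 of 4 tested genes lower. Lyz2 joined it without mock replicate 1 or overexpressing replicate 2. Of 9 endothelial markers (led by Tek, Flt1 and Cdh5) 5 were tested, 2 fell and 1 rose. The sums overlapped, at 24.7 to 28.7 and 24.7 to 25.6 CPM, but held opposite changes. Tek rose from 6.02 CPM in mock to 15.5 CPM in overexpressing libraries, and Flt1 fell from 8.88 to 2.85 CPM. Leaving out any 1 library gave 3 or 4 lower endothelial genes, through Cdh5, Kdr or Emcn, the last of which the low-count filter otherwise removed. The mesothelial list of 8 (led by Krt19, Upk1b and Msln) had sums of 40.6 to 46.5 and 35.0 to 37.9 CPM, with Krt19 lower and Upk1b higher, and Msln also higher without mock replicate 1. Wt1 and Krt8 had no counts. The part of these markers in the decreases of the contractile genes was not tested.

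**Figure D4:**
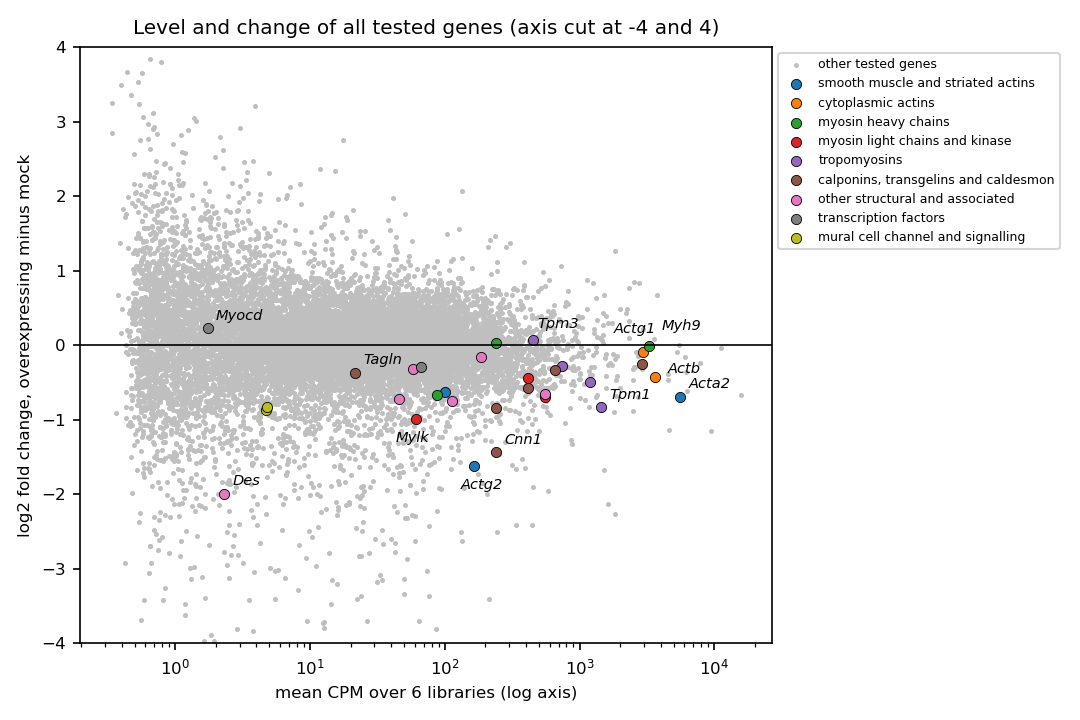
Mean CPM over the 6 libraries (log axis) against log2 fold change for all tested genes in grey and the contractile and actin genes in colour; genes beyond -4 and 4 are outside the axis. Acta2, Actb, Actg1 and Myh9 are at the right, among the genes with the highest CPM, with log2 fold changes from -0.69 to -0.01. Des and Myocd are at the left.

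The members with the highest CPM ranged from level to clearly lower. By CPM, which is not divided by gene length, Acta2, Actb, Myh9, Actg1 and Cald1 ranked 8th, 15th, 18th, 19th and 22nd of the table. By FPKM they ranked 5th, 12th, 120th, 18th and 131st, so Myh9 and Cald1 stood far lower per length. Their log2 fold changes, in the same order, were -0.69, -0.43, -0.01, -0.09 and -0.25. Of all tested genes, 8.85% had a lower log2 fold change than Acta2, 2.12% than Actg2, 2.70% than Cnn1 and 1.43% than Des. The authors' deposited table, whose comparison was adjusted separately, listed 25 of the 32 genes as lower at an adjusted p under 0.05 and 0 as higher.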

How the data were processed

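Total RNA of 6 mouse ADSC libraries was sequenced. The submitters' processing notes name fastp, HISAT2 (2.0.5), StringTie (1.3.3b), featureCounts (1.5.0-p3) and mm39, without role or order. They name no strand setting or annotation release. Gene-level raw counts were deposited, with the authors' FPKM. The scale of these was 0.964 to 0.966 of the total count in mock and 1.04 to 1.06 in overexpressing libraries. FPKM thus carry a factor besides depth, and it differs between the groups. Deposited signal values (group means of normalized counts) were not used. From the deposited comparison, log2 changes and adjusted p-values enter only where the authors' table is named.

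Counts were tested with edgeR 4.0.16 (R 4.3.3): TMM factors, filterByExpr with a minimum count of 10, a robust quasi-likelihood fit with group only, and Benjamini-Hochberg adjustment over 14502 genes at 0.05. Log2 fold changes are overexpressing minus mock, and SE is the change divided by the square root of F. DESeq2 1.42.0 and limma 3.58.1 (voom) were alternatives. On simulated counts for this comparison (14079 genes) the procedure recovered 87% of 2-fold and 60% of 1.5-fold changes, with 7 false calls of 154. Only 100 genes were changed at each fold in the simulation. In the data 45.8% of tested genes were called, so these rates may not carry over. Replicate pairs of a group differed beyond sampling noise (3.55 to 7.47 as chi-square over its degrees of freedom). A library without counts of a gene was below 0.160 to 0.185 CPM (3 counts). Intervals and floors cover counting error only.

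The set of genes, the lists and the tests were chosen with earlier results of these data known. All 32 genes are named, those with an adjusted p under 0.05 and a log2 change of at least 0.5 with every library. From each pathway list the 4 genes with the smallest p are named, and from each marker list the 3 with the highest CPM, except 1 gene that is not reported here. Promoters come from RefSeq (GRCm38.p6) and shared 100-base windows from GENCODE M21 transcripts, and no coordinates were converted between builds.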

Additional observations from a re-analysis of the deposited data

How the results depend on the processing

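Over 15 other settings the number of contractile and actin genes that changed was 24 to 26 in place of 25, and 456 of 465 single-gene results kept their side of the threshold. The exceptions, given above, were Pdlim7 (lost in 5 settings) and Tagln, Actg1, Tpm3 and Myh10 (each gained in 1). No called gene changed sign under any of them, while the small changes of Actg1, Myh10 and Myh9 took the other sign in 1, 1 and 3 settings. Library size alone as the scale shifted the median change over every gene from 0.01 to 0.12 (log2). Under it 2 members rose and the median of the set was -0.46 in place of -0.57. Leaving out 1 library at a time gave a median of -0.63 to -0.53, with -0.63 without mock replicate 3. It gave 5791 to 6475 changed genes in all in place of 6644, 80 to 88 in the pathway and marker lists together in place of 88, and an Acta2 share difference of -6.92 to -4.66 points in place of -6.15. With raw counts in place of FPKM the Acta2 share difference was -6.44 points, but several others moved: Myh11, Myh9 and Actg2 as given above, Tpm1 to -8.29 from -6.70, Tpm2 to 3.24 from 4.15, Tpm3 to 4.79 from 3.33, and the overlapping Tpm4 shares to 0.26 from -0.78. The 1 CPM filter left 1 lower endothelial gene in place of 2, and no filter gave 4. DESeq2 called 5717 genes. Actc1, which the low-count filter removed, had 0.85 (log2, edgeR adjusted p = 0.732) with no filter. The replicate block called 25 members and 6573 genes and changed no call of a member. Deviations of same-numbered libraries correlated by 0.0034 to 0.016, and 2 of 6 libraries were closest to their own number, so no pairing by number was seen. Whether same-numbered libraries shared a culture or batch goes unstated in the labels. Genes at a few CPM, such as Des, Myocd, Kcnmb1 and Rgs5, are limited by depth.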
